A study of Homo sapiens with 3 samples.

Results

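The epithelial identity genes are 9 genes that mark or maintain the epithelial state: the adhesion molecule EPCAM, the transcription factors ELF3, GRHL2 and OVOL1, the splicing regulators ESRP1 and ESRP2, and the keratins KRT8, KRT18 and KRT19. They were taken by symbol from the 50868 genes of the count tables, 1 row each. The set was chosen by the counts of EPCAM, which were higher, and of ELF3, which were lower, in both knockdown libraries, so all values of the 9 genes in this comparison are given as a description, without a test. The cells were NCI-H23, an established human lung adenocarcinoma line. They had been transfected with control siRNA (1 library) or with siRNA against USP16 (2 libraries, called library 1 and library 2 after their titles). USP16 is a ubiquitin protease that acts on histone H2A, and the question of the design is which transcripts differ when it is depleted. The labels give no siRNA sequence, dose or time, and they do not say whether libraries 1 and 2 differ in siRNA or in culture. All 3 libraries come from 1 line, and the spread between the knockdown libraries may be technical.

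Epithelial cells adhere to each other in sheets and carry intermediate filaments made of paired keratins, a type I with a type II chain. Simple epithelia, such as those of the lung, use KRT8 (type II) with KRT18 or KRT19 (type I). Transcription factors of the grainyhead, OVO-like and epithelial ETS families keep epithelial genes active, and the ESRP proteins direct epithelial patterns of splicing. Lung adenocarcinoma lines differ widely in how much of this program they retain, and lines at the mesenchymal end express vimentin.

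The libraries held between 13956382 and 15071179 counts. The target USP16 was lower in both knockdown libraries, with 632 counts in the control, 109 in library 1 and 245 in library 2. As CPM, in which each count is divided by the scaled library size, these were 47.5, 7.69 and 15.8, changes of -83.8% and -66.8%. In what follows 3 values given together are those of the control, library 1 and library 2, and a pair of log2 changes is library 1 and then library 2 against the control. Both pairs use the same control library, so a difference that both show and a deviation of that 1 control cannot be told apart. Intervals are 95% and cover counting error only. In bulk RNA, fewer cells that express a gene and less RNA per cell cannot be told apart.

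The defining markers of the line's tissue of origin were sparse. The surfactant genes SFTPA1, SFTPB and SFTPC had 0 counts in each library, and NKX2-1, the lung lineage factor, had 6, 4 and 10. All 8 lung adenocarcinoma markers together had 149, 116 and 119 counts. The 7 leukocyte and endothelial markers had 97, 133 and 74 counts together (7.29, 9.38 and 4.76 CPM), and 2 passed the filter on low counts. PTPRC had 0, 0 and 1 of these counts and CD3E had none, so nearly all came from the other markers of the list. The 6 fibroblast markers summed to 77.5, 71.3 and 60.9 CPM, with COL1A1 at 918, 881 and 700 counts, while DCN had 0, 2 and 2 counts. One of them, LUM, differed in library 2, with 20, 26 and 140 counts.

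By level, the 9 genes fell into a keratin pair and a sparse remainder. In counts, which favour long transcripts, KRT8 and KRT18 took 94.1% of the counts of all 9 genes in the control (Wilson interval 93.5 to 94.7), 87.1% in library 1 (86.0 to 88.2) and 90.4% in library 2 (89.6 to 91.1). Levels per length are given as CPM per kilobase of all annotated exons of a gene, merged (RPKM). This length was 6881 bases for KRT8, 3218 for KRT18, 7191 for ELF3 and 3849 for OVOL1. Their longest coding transcripts had 2437, 1696, 4994 and 3034 bases. Levels and percentiles per length depend on which length is used. By RPKM, KRT18 stood at 67.8 in the control and KRT8 at 24.2, at percentiles 96.6 and 88.2 of the genes tested. KRT19 followed at 1.99, ESRP2 at 1.66 and EPCAM at 1.13, at percentiles 37.1, 34.1 and 27.6. OVOL1 at 0.644 and ELF3 at 0.595 lay close together, and ESRP1 at 0.0462 and GRHL2 at 0.0372 were at the bottom with 3 counts each. The counting intervals of ESRP1 and GRHL2 in the control coincide, at 0.0465 to 0.658 CPM. Per length EPCAM ranked below KRT19 and ESRP2 in the control and above both in the knockdown libraries, where it stood at 4.51 and 5.92 RPKM and at percentiles 53.8 and 60.4. ELF3 went to percentiles 3.98 and 5.01.

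**Figure D1:**
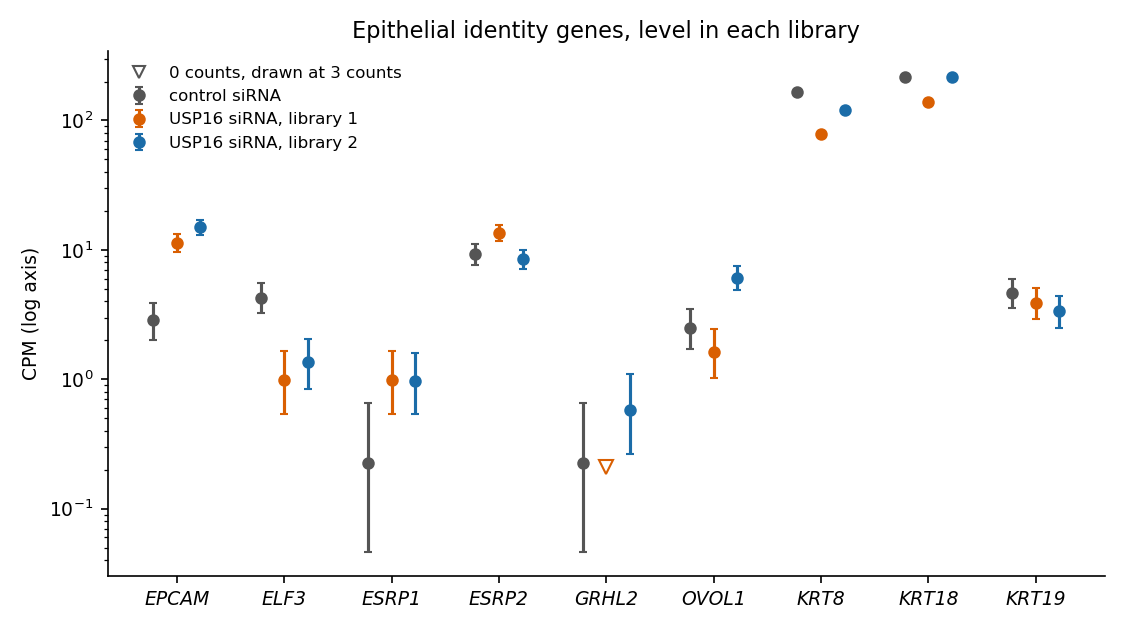
CPM on a log axis for the 9 genes in the control siRNA library (grey), USP16 siRNA library 1 (orange) and USP16 siRNA library 2 (blue), with exact 95% Poisson intervals of the counts. An open triangle marks 0 counts and is drawn at the level of 3 counts. EPCAM lies higher and ELF3 lower in both knockdown libraries, with intervals that do not reach that of the control, while the intervals of KRT19 overlap in all 3.

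EPCAM encodes a homophilic adhesion molecule of epithelial cells that is also used as a carcinoma marker. The gene (ENSG00000119888) lies on the plus strand of chromosome 2 at 47345158 to 47387601 of hg38. It had 38 counts in the control, 161 in library 1 and 232 in library 2, or 2.85 CPM (2.02 to 3.92), 11.4 CPM (9.67 to 13.3) and 14.9 CPM (13.1 to 17.0). Both knockdown libraries were above the control and their intervals did not overlap its interval. The ratio to the control was 3.98 in library 1 (exact binomial interval 2.78 to 5.83) and 5.23 in library 2 (3.70 to 7.57). The log2 changes were 1.94 and 2.33, with a mean of 2.14 ± 0.27 (SD, n = 2). The SD is the spread between libraries 1 and 2, which may differ in siRNA. It holds no variation of the control, which has 1 library. A protein-coding neighbour, the calmodulin gene CALM2, had 6630, 6912 and 7145 counts (-0.03 and -0.12).

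ELF3 encodes an ETS transcription factor whose expression is restricted to epithelia. The gene (ENSG00000163435) lies on the plus strand of chromosome 1 at 202007945 to 202017188. It had 57 counts in the control, 14 in library 1 and 21 in library 2, or 4.28 CPM (3.24 to 5.55), 0.988 CPM (0.540 to 1.66) and 1.35 CPM (0.836 to 2.06). Both knockdown libraries lay below the control, and their intervals overlapped each other but not that of the control. The control exceeded library 1 by a ratio of 4.33 (2.38 to 8.42) and library 2 by 3.17 (1.89 to 5.51), with log2 changes of -1.97 and -1.57 and a mean of -1.77 ± 0.28 (SD, n = 2). The antisense gene ELF3-AS1 overlaps ELF3 and had 3, 0 and 0 counts. The neighbouring aminopeptidase gene RNPEP, 1798 bases away, had 1194, 1068 and 902 counts (-0.25 and -0.63).

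EPCAM and ELF3, both epithelial in their expression, thus stood on opposite sides of the control. Over all 17287 genes that passed the filter on low counts, a 2-fold or larger excess over the control in libraries 1 and 2 alike was found for 649 (3.75%), and a deficit of that size for 290 (1.68%). By the same count EPCAM and ESRP1 were higher and ELF3 lower among the 8 of the 9 genes that passed the filter. Since EPCAM and ELF3 were chosen for this, and ESRP1 passed the filter only through its higher values in the knockdown libraries, nothing is read from that count.

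ESRP1 and ESRP2 encode paralogous RNA-binding proteins that promote epithelial exon choice, and their transcripts differed in level and in pattern. ESRP1 (ENSG00000104413; chromosome 8, 94641074 to 94707466, plus strand) had 3, 14 and 15 counts. Its level was 0.225 CPM in the control (0.0465 to 0.658), 0.988 in library 1 (0.540 to 1.66) and 0.964 in library 2 (0.540 to 1.59). All 3 intervals overlapped. The ratio to the control was 4.38 in library 1 and 4.28 in library 2, with intervals of 1.22 to 23.8 and 1.21 to 23.1, so the size of the difference was poorly determined at this depth. Its log2 changes were 1.63 and 1.60 with a prior count of 2 and 0.87 and 0.85 with a prior count of 10, under a 2-fold difference. ESRP2 (ENSG00000103067; chromosome 16, 68229111 to 68238102, minus strand) had 123, 193 and 132 counts, or 9.24, 13.6 and 8.49 CPM. Library 1 was above the control by a ratio of 1.47 (1.17 to 1.86), whereas library 2 was not separated from it (0.919, 0.713 to 1.18). Per length, ESRP2 stood above ESRP1 in every library, at 1.66 against 0.0462 RPKM in the control, 2.45 against 0.203 in library 1 and 1.53 against 0.198 in library 2.

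GRHL2, a grainyhead factor that maintains epithelial junction genes, was close to the limit of detection. The gene (ENSG00000083307; chromosome 8, 101492432 to 101669726, plus strand) had 3, 0 and 9 counts and did not pass the filter on low counts. The level that 3 counts would give in library 1, the limit that its count of 0 allows, is 0.212 CPM, and the exact two-sided Poisson interval reaches 0.260 CPM. Library 2 stood to the control at 2.57 with an interval of 0.641 to 14.7, which includes 1, so no difference from the control was detectable. The interval of library 2, 0.265 to 1.10 CPM, lay just above that of library 1, at counts of 9 and 0. OVOL1, a zinc finger factor that represses mesenchymal genes in epithelia, differed between the knockdown libraries. The gene (ENSG00000172818; chromosome 11, 65787022 to 65797219, plus strand) had 33, 23 and 95 counts, or 2.48, 1.62 and 6.11 CPM. Library 1 was not separated from the control (ratio 0.655, 0.367 to 1.15), library 2 lay above it (2.46, 1.64 to 3.78), and library 2 exceeded library 1 by a ratio of 3.76 (2.37 to 6.22). The labels do not say whether the 2 knockdown libraries differ in siRNA, and each is 1 library, so this difference has no replicate check.

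**Figure D2:**
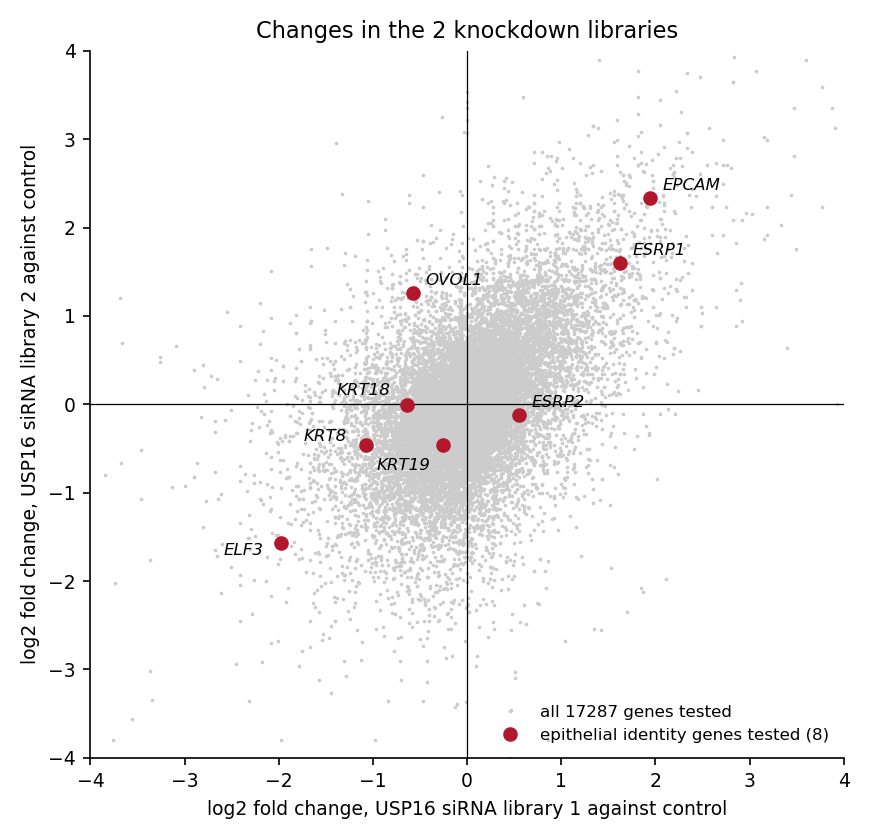
Log2 fold change against the control in USP16 siRNA library 1 (x axis) and library 2 (y axis) for the 17287 genes tested (grey points; 32 lie outside the axes) and the 8 epithelial identity genes among them (red). EPCAM and ESRP1 lie in the upper right and ELF3 in the lower left, and OVOL1 and ESRP2 have opposite signs in the 2 libraries. Both axes share the control library, which by itself draws points toward the diagonal.

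The 3 keratins were at or below the control in both knockdown libraries, by smaller amounts. KRT8 (ENSG00000170421; chromosome 12, 52897187 to 52949954, minus strand) had 2214, 1118 and 1880 counts, or 166.3, 78.9 and 120.9 CPM. The control exceeded library 1 by a ratio of 2.11 (1.96 to 2.27) and library 2 by 1.38 (1.29 to 1.46). KRT18 (ENSG00000111057; chromosome 12, 52948871 to 52952901, plus strand) had 2903, 1986 and 3364 counts, or 218.04, 140.1 and 216.3 CPM. Library 1 lay below the control (ratio 0.643, 0.607 to 0.681), and library 2 had a ratio of 0.992 with an interval that includes 1 (0.944 to 1.04). KRT19 (ENSG00000171345; chromosome 17, 41523617 to 41528308, minus strand) had 62, 55 and 52 counts, with ratios of 0.833 (0.569 to 1.22) and 0.718 (0.487 to 1.05) that both include 1. The log2 changes were -1.07 and -0.46 for KRT8, -0.64 and -0.01 for KRT18, and -0.25 and -0.46 for KRT19. The difference between the 2 knockdown libraries was alike for the pair: library 2 exceeded library 1 by 1.53 for KRT8 (1.42 to 1.65) and by 1.54 for KRT18 (1.46 to 1.63).

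KRT8 and KRT18 form the heteropolymer of simple epithelia, and their ratio can be read within a library, where scaling cancels. KRT18 had 1.31 counts for each KRT8 count in the control (1.24 to 1.39), 1.78 in library 1 (1.65 to 1.91) and 1.79 in library 2 (1.69 to 1.89). The knockdown libraries had nearly the same ratio, above the interval of the control, although their keratin levels differed. A ratio of counts depends on transcript length and is not a ratio of molecules. The genes overlap at their 5' ends over 1084 bases on opposite strands, and the use of strand in the counting is not given in the sources used here, so reads from the overlap could be credited to either gene. Of the 50-base windows of the longest KRT18 transcript, 43.4% also occur in transcripts of other genes, KRT8 and KRT18 pseudogenes foremost, and the share was 31.9% for OVOL1 and 21.2% for ELF3, in both mostly with annotations that overlap the gene itself. It was 3.73% for KRT8, 2.57% for EPCAM, 2.27% for ESRP2 and 1.79% for KRT19, and nearly or exactly 0 for GRHL2 and ESRP1.

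**Figure D3:**
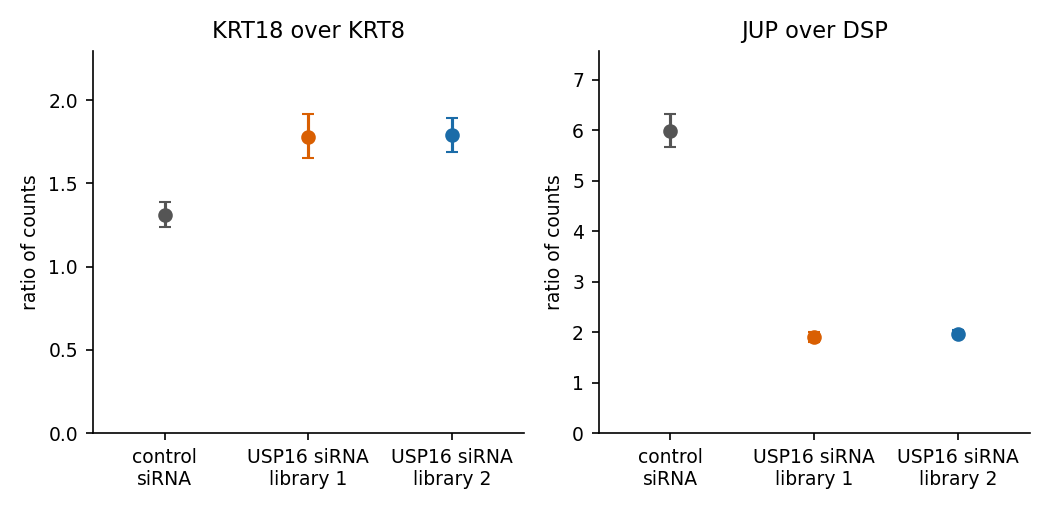
Ratio of counts within each library for KRT18 over KRT8 (left) and for JUP over DSP, encoding the desmosomal proteins plakoglobin and desmoplakin (right), with exact binomial 95% intervals that cover counting error only. Both ratios are nearly equal in the 2 USP16 siRNA libraries, above the control for the keratins and below it for the desmosomal pair. The desmosomal pair was chosen after JUP was seen lower and DSP higher in both libraries, which fixed the direction of its ratio.

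Both keratins have many processed copies in the genome. The tables list 50 KRT8 pseudogenes, which together had 266, 252 and 378 counts, and 66 KRT18 pseudogenes with 42, 40 and 60. The 5 KRT19 pseudogenes had none. The 2 KRT8 copies with the most counts (named after their values were seen) went different ways: KRT8P3 had 98, 33 and 55 counts (-1.60 and -1.03), lower like KRT8, and KRT8P12 had 91, 164 and 234 (0.75 and 1.12), higher where KRT8 was lower. KRT8P12 lies on chromosome 3 at 160565447 to 160569248, on the strand opposite to KPNA4, which it overlaps and which had 2995, 2449 and 4042 counts. The part of misassigned reads in the values of KRT8 was not tested.

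The 5 genes whose pair of log2 changes lay nearest to that of EPCAM (Euclidean distance over the 2 changes, among 11235 genes averaging 100 counts or more) were TNFRSF8, TEX9, KCTD20, AKR1C2 and EREG. TNFRSF8, which encodes the receptor CD30, had 35, 145 and 200 counts and a distance of 0.11. KCTD20 had 576, 2609 and 3496, and EREG, the EGF receptor ligand epiregulin, had 28, 96 and 178. Nearest to ELF3 were TRIM47, PRKCA, FRS2, TBC1D8 and SLC10A3. TRIM47 had 859, 227 and 332 counts and a distance of 0.04, PRKCA, the gene of protein kinase C alpha, had 2512, 664 and 1054, and FRS2, an adaptor of FGF receptors, had 1347, 399 and 531. Likeness over 2 changes that share a control is a description only.

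Further genes of the epithelial program were taken from lists, 159 genes in all with marker lists included, of which 111 passed the filter on low counts. The lists were chosen with earlier results of these data known, so they are not independent of them. None was called by edgeR at a threshold of 0.05 (smallest adjusted p = 0.825), and 6 of the 111 had an unadjusted p under 0.05, where 844 of all 17287 genes tested had one. DESeq2 called 0 as well, with 4 of the 111 and 514 of all genes at an unadjusted p under 0.05. Over all genes tested, edgeR called 0.0174%, that is 3 genes. Direction is therefore given by counts of genes, to be read against the 33.4% of all genes tested that were higher in both knockdown libraries, the 33.5% lower in both and the 33.1% with opposite signs. The medians over all genes tested were 0.002 and -0.003.

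Genes of epithelial junctions, which seal and anchor neighbouring cells, had medians of -0.44 and -0.04. Of 19 tested, 4 were higher and 8 lower in both. The nectin genes PVRL1 (NECTIN1) and PVRL2 (NECTIN2) had the largest mean changes among list genes averaging 100 counts or more, with 1191, 631 and 497 counts (mean log2 change -1.24 ± 0.34, SD, n = 2; edgeR, adjusted p = 0.947) and 1690, 973 and 856 counts (-0.89 and -1.20). The tight junction genes CLDN3, with 200, 127 and 147 counts, and OCLN, with 550, 302 and 531, were at -0.74 and -0.66 and at -0.95 and -0.27. E-cadherin, CDH1, outside the naming rule for its low counts, had 142, 39 and 93 (-1.90 and -0.82), and CLDN7, which binds EPCAM, had 3, 2 and 10.

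Partners of EPCAM and the proteases that cut it were mixed, with 3 of 15 higher in both, 4 lower in both and 8 opposite (medians -0.15 and -0.23). The tetraspanin CD9, which associates with EPCAM at the membrane, had 1247, 289 and 687 counts (-2.19 and -1.08; edgeR, adjusted p = 0.825), the opposite sign to EPCAM. The sheddase ADAM17 was at -0.69 and -0.33 and the presenilin PSEN2 at -0.67 and -0.35. SPINT2, a membrane inhibitor of serine proteases, had 297, 407 and 693 counts (0.36 and 0.99).

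The epithelial relatives of ELF3 among the ETS factors were at or near 0. EHF had 6, 5 and 4 counts, SPDEF 0, 1 and 1, and ELF5 none. The broadly expressed ELF4 and ELF1 were lower in both libraries, with 887, 633 and 548 counts (-0.58 and -0.92) and 619, 398 and 437 counts (-0.72 and -0.72). ETS1 had 647, 169 and 561 (-2.01 and -0.43), and ERG had 70, 144 and 102 (0.93 and 0.31). Of 7 tested, 2 were higher and 3 lower in both, with medians of 0.22 and -0.28.

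Other epithelial transcription factors were higher in both libraries for 0 of 8 tested and lower in both for 6, with medians of -0.47 and -0.17. GRHL3, a paralog of GRHL2, stood above it per length (25.7 against 0.0372 RPKM in the control), with 1350, 1163 and 750 counts (-0.30 and -1.07). The pioneer factor FOXA1 had 144, 64 and 143 (-1.23 and -0.23), KLF4 had 662, 514 and 691 (-0.45 and -0.16), and TFAP2C had 1416, 1380 and 3658 (-0.13 and 1.14). OVOL2, the paralog of OVOL1 and below the filter, had 1, 7 and 9 counts.

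Of 6 splicing regulators other than the ESRPs, 4 were higher in both and 1 lower in both (medians 0.18 and 0.22). MBNL1 had 1399, 2443 and 1918 counts (0.71 and 0.23), PTBP1 2568, 3710 and 4098 (0.44 and 0.45), RBM47 757, 877 and 1057 (0.12 and 0.26), and RBFOX2 3613, 2872 and 3561 (-0.42 and -0.25). Genes with exons that ESRPs regulate had 0 of 11 higher in both and 4 lower in both, with medians of -0.02 and -0.24. ENAH, an actin regulator, had 2424, 2985 and 1003 counts (0.21 and -1.50), ARHGEF11 was at -0.46 and -0.77, SLK at -0.06 and 1.01, and CTNND1, the gene of p120-catenin, at -0.95 and -0.12. Counts per gene hold no information on which exons were used.

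Of 23 other keratins, 10 had 0 counts in all libraries and 5 were tested, 2 higher and 3 lower in both. KRT10, a type I keratin, had 150, 220 and 268 counts (0.46 and 0.61), and KRT80, type II, had 165, 92 and 155 (-0.92 and -0.31). KRT7, a simple type II keratin outside the naming rule for its low counts, had 81, 23 and 49 (-1.82 and -0.92). Linkers of keratin filaments and desmosomal genes were split, with 5 of 16 higher in both and 6 lower in both (medians 0.11 and -0.24). JUP, plakoglobin, had 9512, 4301 and 7362 counts (-1.23 and -0.59), and DSP, the desmoplakin that anchors keratins, had 1590, 2267 and 3734 (0.42 and 1.01). The ratio of JUP to DSP counts, computed after these values were seen, was 5.98 in the control (5.67 to 6.31), 1.90 in library 1 (1.80 to 2.00) and 1.97 in library 2 (1.89 to 2.05). EPPK1, epiplakin, had 207, 351 and 757 counts (0.67 and 1.64), and TCHP, the keratin-binding protein trichoplein, was at -0.70 and -0.64.

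Epithelial signature genes, a list of markers used to grade tumours between epithelial and mesenchymal states, had medians of 0.61 and 0.60. Of the 18 listed, 11 were tested, 7 were higher in both and 1 was lower in both. The list is sparse, at 591, 732 and 990 counts together, and GALNT3, with 1, 3 and 13 counts, passed the filter only through a knockdown library, whereas EPN3, with 13, 1 and 1, passed it only through the control. AP1M2, an epithelial clathrin adaptor subunit, had 90, 147 and 154 (0.61 and 0.54), and ERBB3, a receptor of the EGF receptor family, 128, 154 and 107 (0.17 and -0.47). Outside the naming rule for their low counts and named after their values were seen, P-cadherin, CDH3, had 34, 59 and 168 (0.68 and 2.02), and EPN3, an endocytic adaptor gene, was at -2.41 and -2.45, the list's 1 gene with an unadjusted p under 0.05.

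**Figure D4:**
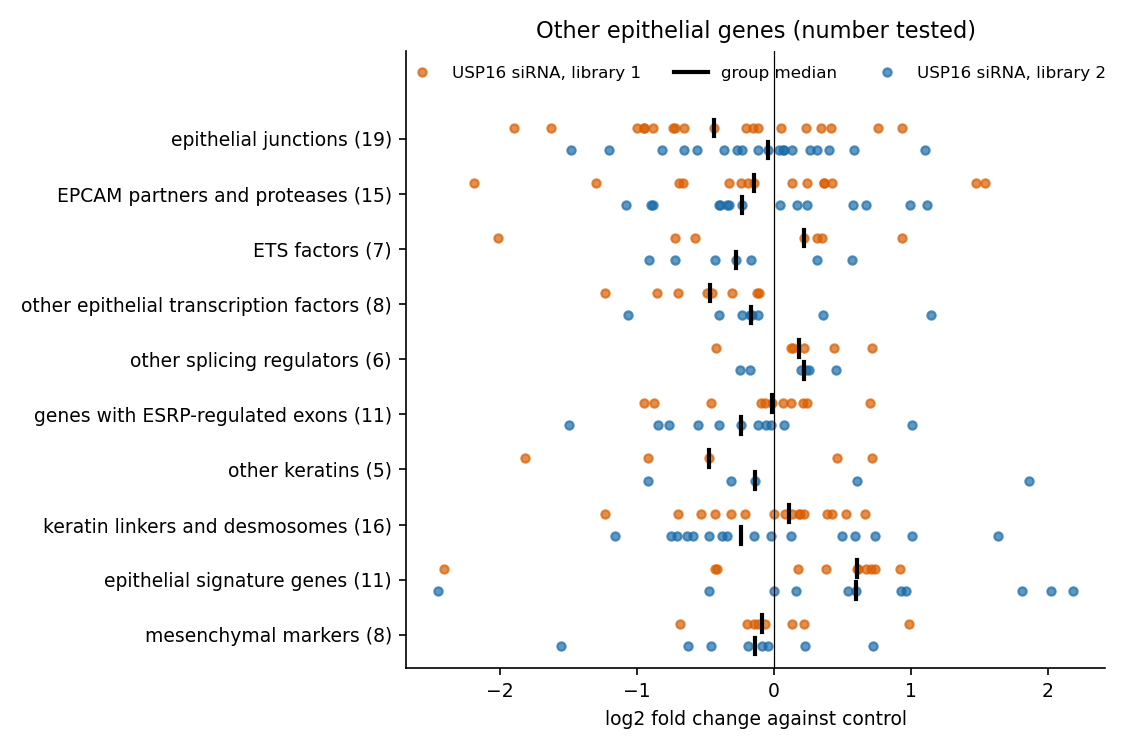
Log2 fold change against the control for every tested gene of 10 gene lists, in USP16 siRNA library 1 (orange) and library 2 (blue), with the median of each list as a black bar and the number of genes tested in brackets. Medians lie near 0.61 and 0.60 for epithelial signature genes and between -0.47 and 0.22 for the other lists.

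Against these stood 1 strong mesenchymal transcript in every library, which held most of the 20867, 20110 and 9003 counts of the 8 mesenchymal markers. VIM, vimentin, had 20066, 19284 and 7957 counts (-0.15 and -1.56). Per length it stood at 292.2, 263.8 and 99.2 RPKM, above KRT18 at 67.8, 43.5 and 67.2, and CDH1 at 1.73, 0.445 and 0.968. The repressors of epithelial genes were detected at modest counts: ZEB1 had 179, 209 and 346 (0.13 and 0.72), SNAI1 188, 174 and 213 (-0.20 and -0.04), and TWIST1 116, 114 and 87 (-0.11 and -0.63). The list's remaining markers, outside the naming rule, were sparse beside VIM: FN1 had 230, 234 and 314 counts and ZEB2 42, 27 and 46. SNAI2 had 36, 45 and 30 counts and CDH2 had 10, 23 and 10. Of the 8 mesenchymal markers, 1 was higher and 4 were lower in both knockdown libraries. EPCAM was higher in library 1, where VIM was near the control, as well as in library 2, where VIM was lower.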

How the data were processed

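RNA of 3 samples was made into mRNA sequencing libraries after DNase treatment, per the labels' protocols. The authors deposited whole-number counts of reads per gene that show no sign of normalization. The tools listed in the submitters' processing notes are HISAT2 2.0.4 and StringTie 1.3.0, with the build hg38. How reads were counted, with which annotation and use of strand, is not given in the sources used here. The count column of library 2 bears the number 6 in its header and was used as labelled by its sample. Gene positions and lengths came from GENCODE release 29, which matched 98.5% of the gene identifiers.

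Genes with low counts were removed with filterByExpr, which left 17287. After TMM scaling (trimmed means of M-values), the groups were compared by the quasi-likelihood test of edgeR 4.0.16 (R 4.3.3). P-values were adjusted after Benjamini and Hochberg, with 0.05 as threshold. With 1 residual degree of freedom, the spread rests on the knockdown pair alone and is taken to hold for the control too. The script was run on simulated data, where the size of planted changes was checked at a spread below that of these data. The power of the test to call genes here is not given. Log2 changes carry a prior count of 2. Intervals are exact Poisson for levels, exact binomial for ratios and Wilson for shares. The 9 genes and the lists were chosen with earlier results of these data known. Named were the 9 genes, USP16, the 5 genes nearest to EPCAM and to ELF3, and up to 4 genes of each list with the largest mean change among those averaging 100 counts or more. Alternatives were no filter, a minimum mean of 100 counts, other scalings, DESeq2 1.42.0, each knockdown library left out in turn, and a prior count of 10. Some items are not reported here.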

Additional observations from a re-analysis of the deposited data

How the results depend on the processing

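With 1 control library, a deviation of that library alone would move every comparison, and no alternative can separate it from the knockdown. edgeR called 3 genes over all tested. It called 70 with no filter on low counts, 1 with a minimum mean of 100 counts, and DESeq2 called 14, the number tested falling to 11236 under the minimum; the cause of the other differences was not tested. None of the 159 list genes was called by edgeR or DESeq2 in any of these. EPCAM, ELF3 and ESRP1 were 2-fold changed in both knockdown libraries with TMM, with median-ratio size factors and with total counts; a prior count of 10, which shrinks low counts, left EPCAM and ELF3, 2 of the 3. Total counts moved the median of all genes to 0.10 and 0.11. Over the 58 named genes the mean log2 change kept its sign in 58 with either other scaling and in 57 with the prior count of 10. Left with 1 knockdown library, 55 and 53 kept it. EPCAM ranged from 1.94 to 2.33 and ELF3 from -1.97 to -1.57, while ESRP2 was at -0.12 and GRHL2 at 0.98 without library 1 and OVOL1 at -0.57 without library 2. Such fits have 1 library against 1 and no test. No paired analysis was possible because the groups share fewer than 2 replicate numbers. The depth limits ESRP1 and GRHL2, at 3 counts each in the control.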
